A study of Mus musculus with 9 samples.

Results

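The RNA of 39 cytokine and interferon receptor genes was examined in mouse leukemia cells. The genes were taken by name from the 55536 genes of the expression table. They encode receptor chains for hematopoietic cytokines, interleukins and interferons, and were chosen by what they encode, not by a threshold on their values. Earlier results of these data were known when they were chosen. The leukemia was made by infecting hematopoietic cells without lineage markers with a retrovirus for MLL-AF9 (MA9), a fusion oncogene, and GFP. The cells then received a retrovirus with BFP alone or with IL-34 and BFP, so all groups carry MLL-AF9, GFP and BFP. IL-34 is a cytokine that binds the receptor encoded by Csf1r. GFP+BFP+ cells (100000 per mouse) were given to C57BL/6J mice aged 6 to 8 weeks, which were not irradiated and kept their own blood cells, and bone marrow was taken on day 18. The groups MA9-c-Kit- and MA9-c-Kit+ are c-Kit-negative and c-Kit-positive leukemia cells of MA9 mice (BFP alone). The MA9-IL-34 group is c-Kit-positive leukemia cells of MA9-IL-34 mice. Each group had 3 libraries. Nothing in the labels tells whether libraries of one group are from different mice. The p-values therefore measure only the spread between these libraries, which may be technical.

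Cytokine receptors work as pairs or larger sets of chains. A private chain binds the ligand, and a shared chain often carries the signal: gp130 (Il6st) for the IL-6 family, the common beta chain (Csf2rb) for GM-CSF, IL-3 and IL-5, and the common gamma chain (Il2rg) for IL-2, IL-4, IL-7, IL-9, IL-15 and IL-21. Most of these chains have no enzyme of their own. They bind JAK kinases, which phosphorylate STAT factors, and SOCS proteins switch the signal off. The IL-1 family uses MyD88 and IRAK kinases in its place. In the bone marrow, receptors of this kind guide survival, growth and the choice between the monocyte, granulocyte, mast cell and erythroid fates.

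The libraries were compared first. They had 12577 to 12972 genes at 1 TPM or more. TPM is a transcript level that is corrected for gene length and for the library total, so levels of different genes can be set side by side. The number of reads is unknown. Spearman correlations were 0.940 to 0.986 within groups and 0.817 to 0.942 between groups. Kit was at 2.46, 2.90 and 1.63 TPM in the MA9-c-Kit- libraries, 135, 117 and 70.6 TPM in the MA9-c-Kit+ libraries and 112, 90.5 and 111 TPM in the MA9-IL-34 libraries. Hoxa9, a target of MLL-AF9, was at 348 TPM or more in every library. Of the 7 T cell markers examined, 5 were below 1 TPM in every library, as were 4 of 5 B cell markers. The remaining B cell marker, Cd79b, was at 19.2 to 41.5 TPM over the 9 libraries. MA9-c-Kit+ replicate 2 had a lower share of mitochondrial transcripts (5.10%) than the other libraries (8.79% to 11.1%). It also differed from its group in monocyte and myeloid genes, in both directions. Csf1r (141 TPM, against 40.8 and 25.6 TPM) and Ms4a6c (374 TPM, against 118 and 78.5 TPM) were highest there. Fn1 (43.8 TPM, against 97.0 and 56.4 TPM) and Cd33 (6.03 TPM, against 33.9 and 45.8 TPM) were lowest. MA9-c-Kit- replicate 3 held more RNA of erythroid cells. Its 5 erythroid markers summed to 1534 TPM, against 31.4 and 10.5 TPM in the other MA9-c-Kit- libraries. The sign of the sort is missing from the name of this library's column, which was assigned to MA9-c-Kit- as the 1 column left. Receptor genes whose call changes without these libraries are named below.

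Of the 39 receptor genes, 29 reached 1 TPM in at least 3 libraries and were tested. The other 10 were Il5ra, Epor, Il27ra, Osmr, Il2ra, Il2rb, Il7r, Il9r, Il1rl1 and Il18r1. All but Epor and Il1rl1 of these were below 1 TPM in every library. At the upper end, 15 genes were at 10 TPM or more in every library. Csf2ra had the highest mean in each group, 836 ± 114 TPM in MA9-c-Kit-, 374 ± 43.01 TPM in MA9-c-Kit+ and 578 ± 48.8 TPM in the MA9-IL-34 group (SD, n = 3). Ifngr1 came next in each group. The summed level of the 39 genes was 2958 to 3215 TPM in MA9-c-Kit-, 1510 to 1725 TPM in MA9-c-Kit+ and 2042 to 2150 TPM in MA9-IL-34 libraries, without overlap. The highest genes, Csf2ra and Ifngr1 among them, weigh most in this sum, so it does not show how most of the genes moved.

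**Figure D1:**
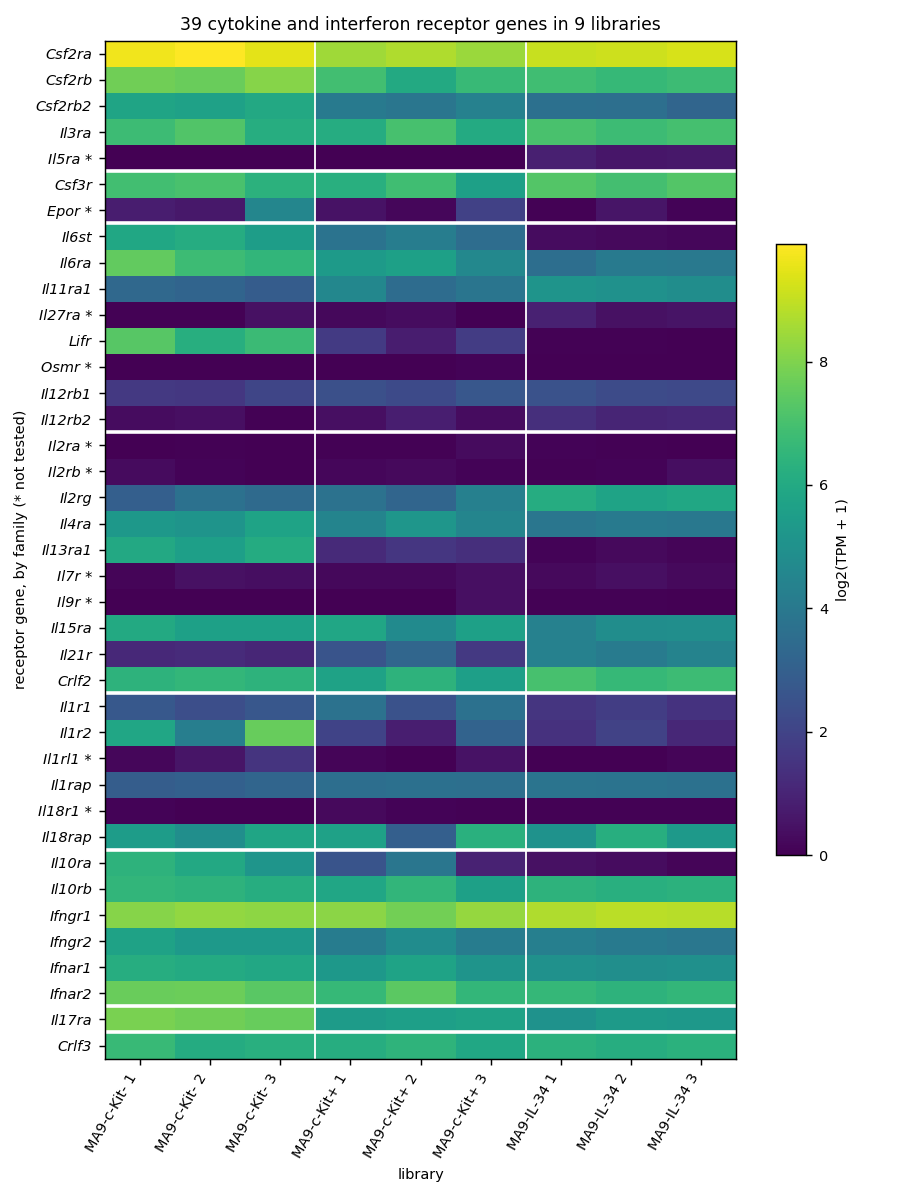
Level of the 39 receptor genes, log2(TPM + 1) by color, in 9 libraries (columns, 3 per group), with rows grouped by receptor family and an asterisk at the 10 genes that were not tested. Csf2ra and Ifngr1 are bright in every library, Il6st, Lifr, Il13ra1 and Il10ra darken from MA9-c-Kit- to MA9-IL-34, and Il2rg and Il21r are brightest in MA9-IL-34.

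A gene was called changed where it differed at least 2-fold with an adjusted p under 0.05 (limma on log2(TPM + 1), Benjamini-Hochberg adjustment over the 13722 genes tested). In MA9-IL-34 compared with MA9-c-Kit+ cells, the question was what differs in c-Kit+ leukemia cells that overexpress IL-34. Il6st, Il1r1, Lifr, Il6ra and Il13ra1 fell and Il2rg, Il21r and Il11ra1 rose. These 8 genes are 27.6% of the 29 tested receptor genes, and 7.24% of all tested genes were called. Of all tested genes 3.86% were called higher and 3.38% lower. The median log2 fold change was -0.12 over the tested receptor genes and 0.01 over all tested genes. The added 1 compresses low levels, so the fold of low genes is understated.

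In MA9-c-Kit+ compared with MA9-c-Kit- cells of the same kind of mouse, 12 of 29 tested receptor genes were called (41.4%), with 14.8% of all tested genes called. The 11 lower genes were Lifr, Il13ra1, Il1r2, Il10ra, Il17ra, Il6st, Il6ra, Csf2rb2, Csf2rb, Csf2ra and Ifngr2 (9.15% of all tested genes were called lower), and the 1 higher gene was Il21r (5.66% were called higher). The median log2 fold change was -0.55 over the tested receptor genes and 0.03 over all tested genes. In MA9-IL-34 compared with MA9-c-Kit- cells, which differ in both IL-34 and the sort, 18 of 29 were called (62.1%), with 24% of all tested genes called. Of these 15 were lower (12.7% of all tested genes) and 3 were higher (11.3%). The median was -1.01 over the receptor genes and 0.06 over all tested genes. The comparisons share libraries and are not independent of each other.

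**Figure D2:**
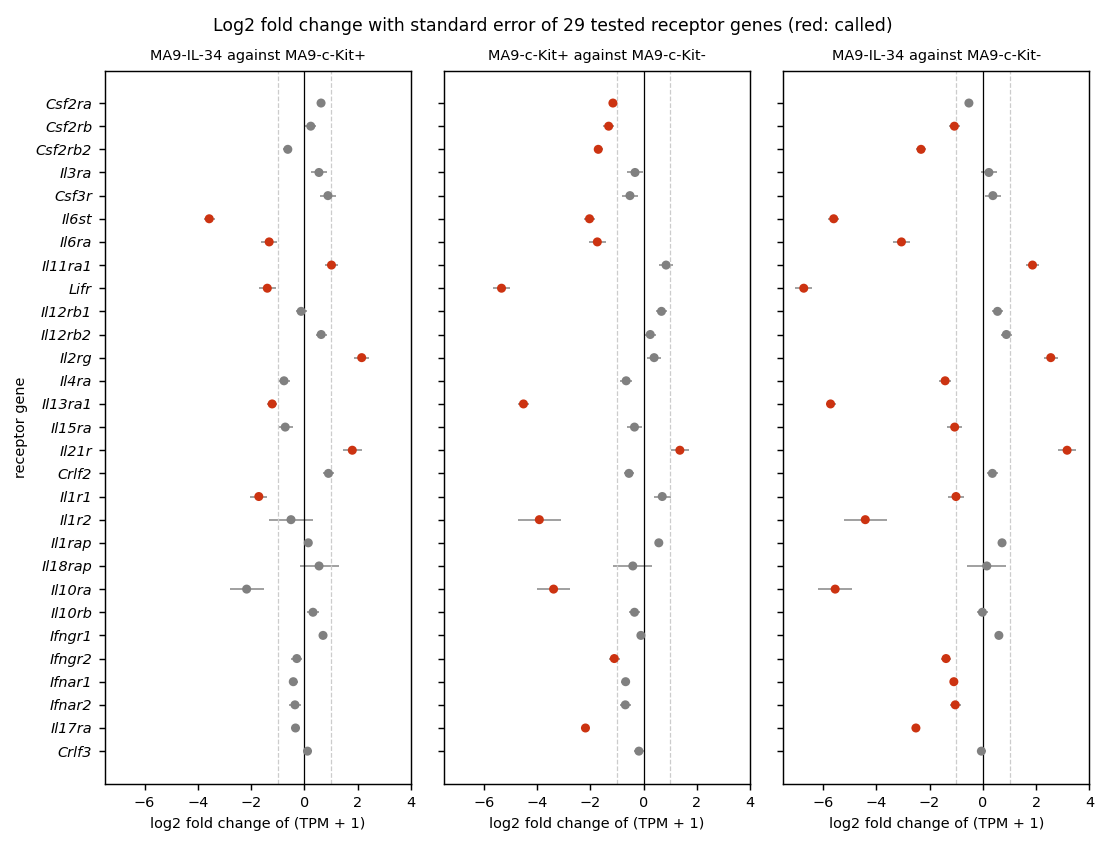
Log2 fold change of (TPM + 1) with its standard error for the 29 tested receptor genes (rows) in the 3 comparisons (panels), red where called and grey where not, with dashed lines at a fold change of 2. In MA9-IL-34 against MA9-c-Kit+ cells 5 red points lie left of 0 and 3 lie right of it, and against MA9-c-Kit- cells these numbers are 11 and 1 for MA9-c-Kit+ and 15 and 3 for MA9-IL-34.

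The IL-6 family held the largest fall. Il6st encodes gp130, the signal chain shared by IL-6, IL-11, LIF, oncostatin M and IL-27. It was at 59.1, 69.01 and 44.8 TPM in MA9-c-Kit- libraries, 12.5, 17.1 and 10.5 TPM in MA9-c-Kit+ libraries and 0.24, 0.19 and 0.13 TPM in MA9-IL-34 libraries. The 3 groups did not overlap. Il6st was lower in MA9-IL-34 cells than in MA9-c-Kit+ cells (log2 fold change -3.57 with standard error 0.21, adjusted p = 1.27e-05) and lower in MA9-c-Kit+ than in MA9-c-Kit- cells (log2 fold change -2.03 with standard error 0.21, adjusted p = 0.000201). With a pseudocount of 0.1 in place of 1, the log2 fold change in MA9-IL-34 compared with MA9-c-Kit+ cells was -5.54. The RNA came from bulk sorted cells, in which fewer cells of a type and less RNA per cell cannot be told apart.

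Il6ra encodes the chain that binds IL-6 itself. Its levels were 181, 111 and 91.4 TPM in MA9-c-Kit-, 40.7, 48.2 and 23.6 TPM in MA9-c-Kit+ and 10.8, 15.9 and 15.2 TPM in MA9-IL-34 libraries. The 3 groups did not overlap, and the level in MA9-IL-34 cells stayed above 10 TPM. MA9-c-Kit+ cells had less Il6ra than MA9-c-Kit- cells (log2 fold change -1.74 with standard error 0.31, adjusted p = 0.00269). The lower level of MA9-IL-34 relative to MA9-c-Kit+ cells (log2 fold change -1.32 with standard error 0.31, adjusted p = 0.0226) lost its call without MA9-c-Kit+ replicate 1 or 2 (adjusted p = 0.0776 and 0.0527) or without MA9-IL-34 replicate 1, 2 or 3 (0.0942, 0.0514 and 0.063, limma).

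Lifr encodes the LIF receptor, which pairs with gp130 for LIF and oncostatin M. It was at 159, 72.4 and 107 TPM in MA9-c-Kit- and 2.23, 0.75 and 2.39 TPM in MA9-c-Kit+ libraries, and listed at 0.03, 0.03 and 0.00 TPM in MA9-IL-34 libraries. MA9-c-Kit- libraries were far above all others. This was the largest fold change of the 29 receptor genes in MA9-c-Kit+ against MA9-c-Kit- cells (log2 fold change -5.34 with standard error 0.32, adjusted p = 1.14e-05). In MA9-IL-34 compared with MA9-c-Kit+ cells, the difference lay at low levels (log2 fold change -1.39 with standard error 0.32, adjusted p = 0.0219). This call did not hold without MA9-c-Kit+ replicate 1 or 3 (adjusted p = 0.078 and 0.0652) or without MA9-IL-34 replicate 1, 2 or 3 (0.0708, 0.0671 and 0.0774, limma), and with a pseudocount of 0.1 the log2 fold change was -3.84.

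Il11ra1, the IL-11 binding chain, went the other way. Its levels were 9.12, 8.03 and 6.42 TPM in MA9-c-Kit-, 22.8, 10.3 and 13.6 TPM in MA9-c-Kit+ and 34.04, 31.02 and 28.03 TPM in MA9-IL-34 libraries. All MA9-IL-34 libraries were above all others, while gp130, with which this chain signals, was at 0.24 TPM or less in them. The rise over MA9-c-Kit- cells was called (log2 fold change 1.86 with standard error 0.26, adjusted p = 0.000391) under all alternatives run. The rise over MA9-c-Kit+ cells (log2 fold change 1.02 with standard error 0.26, adjusted p = 0.031) lay just above the fold threshold. It lost its call without MA9-c-Kit- replicate 2 (adjusted p = 0.0502), without MA9-c-Kit+ replicate 2 or 3 (0.0547 and 0.0789) or without MA9-IL-34 replicate 1, 2 or 3 (0.117, 0.093 and 0.0778, limma). Without MA9-c-Kit+ replicate 2 it was instead called higher in MA9-c-Kit+ than in MA9-c-Kit- cells (log2 fold change 1.09, adjusted p = 0.00729, limma). Il11ra2, a closely related copy, was listed at 0.12 TPM or less in every library. How reads shared by the copies were counted is not given in the sources used here.

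The remaining chains of this group were low. Il12rb1, shared by the IL-12 and IL-23 receptors, was at 2.04 to 5.40 TPM over the 9 libraries and was called in no comparison. Il12rb2, the signal chain for IL-12, reached 1 TPM only in MA9-IL-34 libraries (1.51, 1.01 and 1.12 TPM), was at 0.77 TPM or less in the others, and passed the filter through that group alone. Its exons share 1519 bases with Serbp1 on the opposite strand, which was at 579 to 1851 TPM. The library kit does not mark strand, so reads of both genes cannot be told apart there. Il27ra, the IL-27 binding chain, was at 0.89 TPM or less, and Osmr, the oncostatin M receptor, at 0.08 TPM or less.

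Socs3, which is known to be induced by gp130 signals and to block them, was at 13.4, 25.5 and 34.4 TPM in MA9-c-Kit-, 0.76, 0.82 and 1.84 TPM in MA9-c-Kit+ and 0.02, 0.32 and 0.00 TPM in MA9-IL-34 libraries. The MA9-c-Kit- libraries did not overlap the others. Socs3 fell in the MA9-c-Kit+ group relative to the MA9-c-Kit- group (log2 fold change -3.51 with standard error 0.34, adjusted p = 0.000122). The summed level of 6 monocyte markers also fell, but single markers differed. The sum was 7749 to 10866 TPM in MA9-c-Kit-, 2471 to 4675 TPM in MA9-c-Kit+ and 2112 to 2158 TPM in MA9-IL-34 libraries. None of the markers was at 0. Csf1r, Fn1 and F13a1 fell over the 3 groups without overlap. Ccr2 and Ms4a6c were highest in MA9-c-Kit- libraries. Their other groups overlapped, with Ccr2 at 21.3 to 39.1 TPM in MA9-c-Kit+ and 23.85 to 25.1 TPM in MA9-IL-34 libraries. Ly6c2 was at 2203 to 4350 TPM in MA9-c-Kit-, 1833 to 3558 TPM in MA9-c-Kit+ and 1774 to 1867 TPM in MA9-IL-34 libraries. Its MA9-c-Kit+ libraries overlapped both other groups. The part of these markers in the result was not tested.

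**Figure D3:**
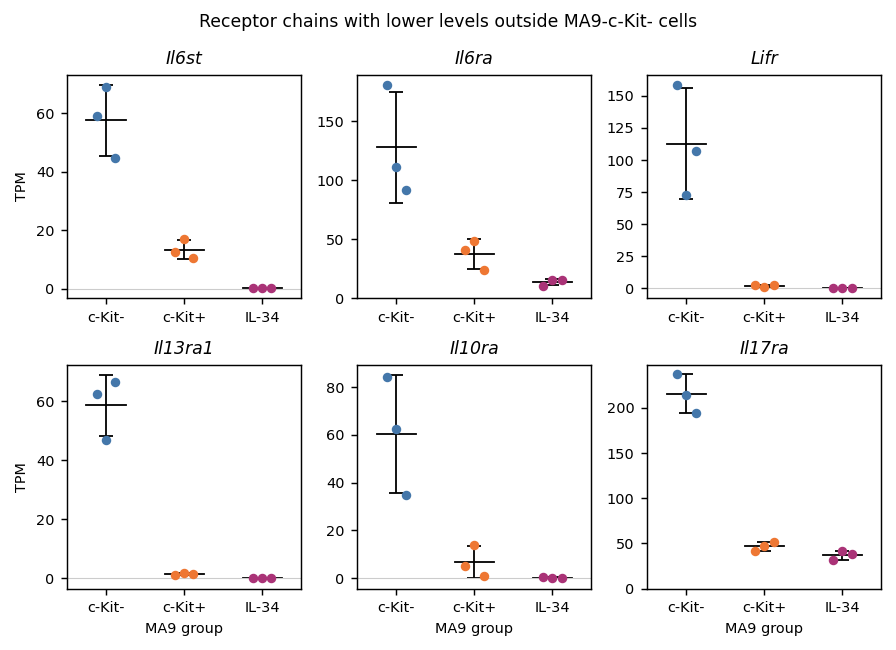
TPM of 6 receptor genes in each library (points, 3 per group), with the group mean (line) and SD (bars) on linear axes. For Il6st the MA9-c-Kit- points lie at 44.8 to 69.0 TPM, the MA9-c-Kit+ points at 10.5 to 17.1 TPM and the MA9-IL-34 points at 0.13 to 0.24 TPM, while for Il17ra the MA9-c-Kit+ and MA9-IL-34 points lie close together at 31.6 to 51.1 TPM.

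The promoters of the genes with the largest changes were read to show what lies before their start sites. The sequences are the 250 bases before each RefSeq start on GRCm38.p6, written 5′ to 3′ on the gene's strand. Il6st starts on chromosome 13, Lifr has entries for 2 starts on chromosome 15, and Il13ra1 is on chromosome X. The capitals in Il6st mark its match to the composite ETS-IRF element, here on the reverse strand.
Il6st, chr13:112463820-112464069 (+): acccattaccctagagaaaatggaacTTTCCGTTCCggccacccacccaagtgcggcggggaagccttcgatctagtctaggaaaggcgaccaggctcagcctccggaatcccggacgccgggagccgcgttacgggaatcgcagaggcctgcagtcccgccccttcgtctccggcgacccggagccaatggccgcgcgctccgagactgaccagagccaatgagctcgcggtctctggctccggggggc
Lifr, chr15:7129322-7129571 (+): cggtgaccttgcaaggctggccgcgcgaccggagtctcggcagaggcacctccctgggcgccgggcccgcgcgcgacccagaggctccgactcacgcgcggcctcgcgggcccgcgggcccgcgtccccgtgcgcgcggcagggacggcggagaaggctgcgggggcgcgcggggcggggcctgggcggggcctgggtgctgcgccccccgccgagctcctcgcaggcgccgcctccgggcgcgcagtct
Lifr, chr15:7140292-7140541 (+): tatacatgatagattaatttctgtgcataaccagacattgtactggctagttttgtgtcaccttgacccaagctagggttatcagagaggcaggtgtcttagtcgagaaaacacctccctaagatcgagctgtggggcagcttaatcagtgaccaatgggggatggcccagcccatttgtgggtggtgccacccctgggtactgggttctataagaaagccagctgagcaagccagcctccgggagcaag
Il13ra1, chrX:36111858-36112107 (+): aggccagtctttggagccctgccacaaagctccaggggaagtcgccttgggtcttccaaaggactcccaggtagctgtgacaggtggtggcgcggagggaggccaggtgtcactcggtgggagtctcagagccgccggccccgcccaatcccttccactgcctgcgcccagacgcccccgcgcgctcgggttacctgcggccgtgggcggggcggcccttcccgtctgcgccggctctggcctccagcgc
The window of Il6st holds 26 CpG dinucleotides, the first window of Lifr 43, its other window 3 and that of Il13ra1 21. The median over all 32851 promoters is 6. Of these 4 windows, 3 hold more than the median.

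Short motifs of 5 kinds were searched on both strands in the 39 promoter entries of 32 receptor genes. The STAT element TTCNNNGAA was in 6 entries (Csf2rb2, Ifnar2, Il12rb2, Il18r1, Il1r2 and Il7r) and in 7.02% of all promoters. The PU.1 site GAGGAAGT was in 2 (Crlf3 and Il18rap) and in 2.44% of all. The ETS-IRF composite element (GGAA, any 2 bases, then GAAA) was in the promoter of Il6st only and in 2.3% of all. The C/EBP site TTGCNNAA was in 4 (Il1r1, Il1rl1, Il3ra and Il7r) and in 9.56% of all. The GATA site AGATAA was in 6 entries of 5 genes (Epor, Il1rl1, Il5ra, Il6ra and Il9r) and in 9.99% of all. A match shows only that these letters are in the window.

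Il13ra1 encodes a chain that binds IL-13 and joins with IL-4Rα. Its levels were 62.5, 46.9 and 66.3 TPM in MA9-c-Kit-, 1.25, 1.99 and 1.55 TPM in MA9-c-Kit+ and 0.06, 0.20 and 0.09 TPM in MA9-IL-34 libraries. The 3 groups did not overlap. Il13ra1 was lower in the MA9-c-Kit+ group than in the MA9-c-Kit- group (log2 fold change -4.51 with standard error 0.19, adjusted p = 1.85e-06) and again in the MA9-IL-34 group (log2 fold change -1.21 with standard error 0.19, adjusted p = 0.00323), where the level was close to 0. With a pseudocount of 0.1 the latter log2 fold change was -3.0. Il4ra, the IL-4Rα chain, was at 38.2, 34.3 and 52.3 TPM in MA9-c-Kit-, 21.3, 36.1 and 21.7 TPM in MA9-c-Kit+ and 13.7, 15.7 and 14.7 TPM in MA9-IL-34 libraries. It was lower in MA9-IL-34 cells than in MA9-c-Kit- cells (log2 fold change -1.42 with standard error 0.22, adjusted p = 0.000805) and was not called in the other comparisons, although its MA9-IL-34 libraries were also below all MA9-c-Kit+ libraries.

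Il2rg, the common gamma chain, was at 7.05, 11.9 and 9.62 TPM in MA9-c-Kit- and 12.4, 8.43 and 18.7 TPM in MA9-c-Kit+ libraries, which overlapped. In MA9-IL-34 libraries it was at 68.2, 53.1 and 57.9 TPM, above all others. It rose against MA9-c-Kit+ cells (log2 fold change 2.15 with standard error 0.27, adjusted p = 0.000931) and against MA9-c-Kit- cells (log2 fold change 2.55 with standard error 0.27, adjusted p = 9.05e-05). Il21r, which pairs with it to bind IL-21, was at 1.19, 1.34 and 1.07 TPM in MA9-c-Kit-, 4.96, 8.64 and 2.13 TPM in MA9-c-Kit+ and 19.6, 16.3 and 20.3 TPM in MA9-IL-34 libraries. The 3 groups did not overlap. Its level rose in MA9-IL-34 against MA9-c-Kit+ cells (log2 fold change 1.80 with standard error 0.35, adjusted p = 0.00894) and in MA9-c-Kit+ against MA9-c-Kit- cells (log2 fold change 1.36 with standard error 0.35, adjusted p = 0.0136). Without MA9-c-Kit+ replicate 2, which held the highest level of its group, the latter log2 fold change was 0.98 and below the fold threshold (adjusted p = 0.0216, limma).

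The promoters of these rising genes are shown in the same way so that their base composition can be set beside the windows above. Neither held one of the motifs searched.
Il2rg, chrX:101268256-101268505 (-): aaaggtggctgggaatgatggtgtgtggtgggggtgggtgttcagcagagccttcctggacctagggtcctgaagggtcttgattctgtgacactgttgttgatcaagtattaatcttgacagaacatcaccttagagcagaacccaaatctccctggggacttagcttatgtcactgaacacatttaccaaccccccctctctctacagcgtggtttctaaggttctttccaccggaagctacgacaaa
Il21r, chr7:125603179-125603428 (+): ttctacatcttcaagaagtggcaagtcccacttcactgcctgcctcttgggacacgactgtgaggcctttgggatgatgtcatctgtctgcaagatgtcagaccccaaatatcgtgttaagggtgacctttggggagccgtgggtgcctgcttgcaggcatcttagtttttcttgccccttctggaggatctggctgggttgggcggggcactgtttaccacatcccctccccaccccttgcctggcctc
They hold 3 and 4 CpG dinucleotides. Other receptor genes did not divide in this way. The window of Csf2rb2, called lower in both c-Kit+ groups than in MA9-c-Kit- cells, also holds 3. That of Il1rap, called in no comparison, holds 30. A link between CpG content and the changes was not tested. Il21r lies on chromosome 7 beside Il4ra (125552120 to 125579474 and 125603429 to 125633570, both on the plus strand in GENCODE M21). These neighbours changed in opposite directions in MA9-IL-34 compared with MA9-c-Kit- cells.

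Among the other partners of the common gamma chain, 4 were close to 0, while Il4ra and Il15ra were not. Il2ra and Il2rb, which complete the IL-2 receptor, were at 0.23 and 0.30 TPM or less in every library. Il7r and Il9r were at 0.35 and 0.32 TPM or less. Il15ra, which presents IL-15, was at 64.4, 48.6 and 48.5 TPM in MA9-c-Kit-, 57.6, 25.8 and 48.95 TPM in MA9-c-Kit+ and 19.6, 28.2 and 28.3 TPM in MA9-IL-34 libraries. MA9-IL-34 libraries were below all MA9-c-Kit- libraries (log2 fold change -1.06 with standard error 0.28, adjusted p = 0.0126) and overlapped MA9-c-Kit+ libraries through MA9-c-Kit+ replicate 2 alone. Without that library Il15ra was called lower in MA9-IL-34 cells than in MA9-c-Kit+ cells (limma, log2 fold change -1.06 and adjusted p = 0.01004). In the comparison with MA9-c-Kit- cells, without MA9-c-Kit- replicate 1 its log2 fold change was -0.93 (adjusted p = 0.0476), and without MA9-IL-34 replicate 1 it was -0.89 (0.051, limma), so the call was lost. Crlf2, the TSLP receptor chain, was at 83.7, 92.5 and 84.4 TPM in MA9-c-Kit-, 51.8, 84.1 and 46.9 TPM in MA9-c-Kit+ and 129, 98.0 and 109 TPM in MA9-IL-34 libraries. It was higher in MA9-IL-34 cells than in MA9-c-Kit+ libraries without overlap but did not reach 2-fold (log2 fold change 0.91 with standard error 0.20, adjusted p = 0.019). Without MA9-c-Kit+ replicate 2 it was called (log2 fold change 1.16).

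Il2rg and Il21r are also expressed by lymphocytes. The 6 markers of NK cells and innate lymphoid cells summed to 0.77 to 3.20 TPM in MA9-c-Kit-, 26.3 to 77.7 TPM in MA9-c-Kit+ and 154 to 210 TPM in MA9-IL-34 libraries. Nkg7, a granule protein, made up nearly all of this sum in both c-Kit+ groups (185, 153 and 209 TPM in MA9-IL-34 libraries). The defining NK receptor gene Ncr1 was at 0.14 TPM or less and Eomes at 0.05 TPM or less in every library. The 7 T cell markers summed to 0.69 to 2.68 TPM, with Cd3e at 0.36 TPM or less. The summed level of 9 markers of mast cells and basophils was also highest in MA9-IL-34 libraries. They summed to 32.4 to 42.9 TPM in MA9-c-Kit-, 63.9 to 90.2 TPM in MA9-c-Kit+ and 245 to 336 TPM in MA9-IL-34 libraries. Hdc, the enzyme that makes histamine, made up most of the sum in MA9-IL-34 libraries (234, 173 and 206 TPM). It was at 10.02 TPM or less in the others. Cpa3 was also highest in MA9-IL-34 libraries (47.1, 11.3 and 16.45 TPM, against 10.7 TPM or less). Mcpt8, Gata2 and Ms4a2 were not, and reached their highest levels in MA9-c-Kit+ libraries (61.6, 41.9 and 2.64 TPM). Mcpt4 was at 0.06 TPM or less, and Fcer1a, Cma1 and Tpsb2 were listed at 0 in every library. The part of these markers in the levels of Il2rg and Il21r was not tested.

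**Figure D4:**
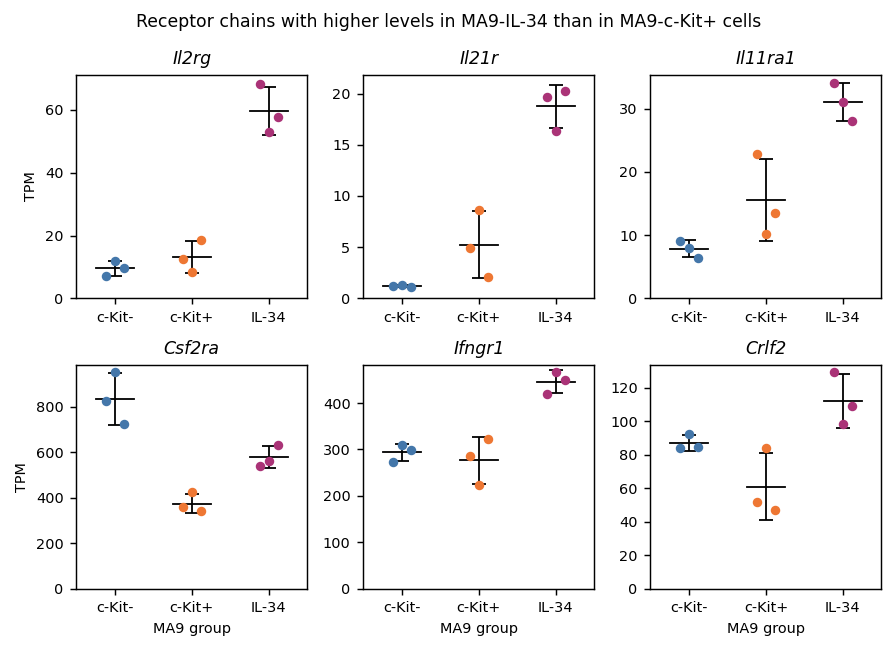
TPM of 6 receptor genes in each library (points, 3 per group), with the group mean (line) and SD (bars) on linear axes. Il2rg lies at 53.1 to 68.2 TPM in MA9-IL-34 and at 18.7 TPM or less elsewhere, and Csf2ra is lowest in MA9-c-Kit+ cells, with 342 to 423 TPM.

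The GM-CSF, IL-3 and IL-5 receptors share the common beta chain. Csf2ra, the GM-CSF binding chain, was at 826, 955 and 726 TPM in MA9-c-Kit-, 357, 423 and 342 TPM in MA9-c-Kit+ and 538, 562 and 632 TPM in MA9-IL-34 libraries. MA9-c-Kit+ cells were lowest and the groups did not overlap. Csf2ra fell in MA9-c-Kit+ compared with MA9-c-Kit- cells (log2 fold change -1.15 with standard error 0.13, adjusted p = 0.000291). It was higher in MA9-IL-34 cells than in MA9-c-Kit+ cells but below 2-fold (log2 fold change 0.63 with standard error 0.13, adjusted p = 0.0133). Csf2rb, the common beta chain, was at 217, 198 and 275 TPM in MA9-c-Kit-, 118, 64.1 and 99.98 TPM in MA9-c-Kit+ and 117, 98.7 and 109 TPM in MA9-IL-34 libraries. The latter groups overlapped and both were lower than MA9-c-Kit- cells (log2 fold change -1.31 with standard error 0.21, adjusted p = 0.00178 for MA9-c-Kit+, and log2 fold change -1.07 with standard error 0.21, adjusted p = 0.00301 for MA9-IL-34). Without MA9-c-Kit- replicate 3 the log2 fold change of MA9-IL-34 cells was -0.94 and was not called.

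Csf2rb2 encodes a beta chain of the mouse that serves IL-3 alone. It was at 54.5, 49.1 and 62.7 TPM in MA9-c-Kit-, 15.8, 13.9 and 19.5 TPM in MA9-c-Kit+ and 11.5, 11.2 and 8.30 TPM in MA9-IL-34 libraries, without overlap. Csf2rb2 was lower in MA9-c-Kit+ than in MA9-c-Kit- cells (log2 fold change -1.70 with standard error 0.17, adjusted p = 0.000165), and the further difference in MA9-IL-34 cells was below 2-fold (log2 fold change -0.62 with standard error 0.17, adjusted p = 0.0465). Csf2rb and Csf2rb2 are neighbouring copies on chromosome 15 of GRCm38 (78325752 to 78353847 on the plus strand and 78282507 to 78305721 on the minus strand). Their coding sequences have 2688 and 2634 bases and are 95.2% identical over 2628 aligned bases. Of the 50-base stretches of Csf2rb, 26.2% also occur in Csf2rb2. The start of both coding sequences is shown to make this visible, with the 6 bases that differ in capitals.
Csf2rb, coding bases 1 to 150: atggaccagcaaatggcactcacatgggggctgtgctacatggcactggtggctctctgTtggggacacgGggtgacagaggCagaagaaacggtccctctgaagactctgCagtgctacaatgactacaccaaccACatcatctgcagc
Csf2rb2, coding bases 1 to 150: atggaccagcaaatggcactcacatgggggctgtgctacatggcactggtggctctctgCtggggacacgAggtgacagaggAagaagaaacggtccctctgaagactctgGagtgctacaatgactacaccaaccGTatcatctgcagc
How reads that fit both genes were counted is not given in the sources used here, so the split between these genes is uncertain.

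Il3ra, the IL-3 binding chain, was at 65.4 to 146 TPM and overlapped between all groups. Il5ra, the IL-5 binding chain, was listed at 0.00, 0.00 and 0.00 TPM in MA9-c-Kit- and 0.00, 0.02 and 0.00 TPM in MA9-c-Kit+ libraries. In MA9-IL-34 libraries it was at 0.85, 0.53 and 0.56 TPM, above all others but below the filter. Eosinophils express this gene. The 6 eosinophil markers summed to 3.02 to 25.8 TPM in the other groups and to 133 to 190 TPM in MA9-IL-34 libraries, where Siglecf made up most of the sum (163, 120.1 and 164 TPM), while the defining genes Epx and Ccr3 were at 0.24 and 0.20 TPM or less there and Ear6 was listed at 0. The granule protein genes Prg2 (12.6, 6.33 and 7.51 TPM) and Prg3 (13.8, 6.34 and 11.2 TPM) were also highest in MA9-IL-34 libraries, against 5.82 and 2.32 TPM or less in the others. Their part in the level of Il5ra was not tested. Csf3r, the G-CSF receptor, was at 120.01, 131 and 80.5 TPM in MA9-c-Kit-, 75.1, 117 and 49.1 TPM in MA9-c-Kit+ and 149.9, 122 and 152 TPM in MA9-IL-34 libraries. MA9-IL-34 libraries were above MA9-c-Kit+ libraries, but the test did not pass (log2 fold change 0.89 with standard error 0.29, adjusted p = 0.0861). Without MA9-c-Kit+ replicate 2 it was called (log2 fold change 1.20, adjusted p = 0.0139, limma).

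Epor, the erythropoietin receptor, was at 0.71, 0.55 and 22.4 TPM in MA9-c-Kit- libraries, 0.41, 0.12 and 2.82 TPM in MA9-c-Kit+ libraries and 0.03, 0.46 and 0.07 TPM in MA9-IL-34 libraries. Replicate 3 was highest in both groups of MA9 mice. The erythroid markers, among them the globin genes Hba-a1 and Hbb-bs, were also highest in MA9-c-Kit- replicate 3, with Hbb-bs at 1031 TPM there. They summed to 3.98, 4.18 and 22.9 TPM in the MA9-c-Kit+ libraries. None of the markers was at 0 in every library. Their part in the level of Epor was not tested.

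In the IL-1 family, Il1r2 and Il1r1 were the called genes. Il1r2 encodes the decoy receptor, which binds IL-1 without a signal. It was at 57.4, 18.1 and 194 TPM in MA9-c-Kit-, 3.0, 0.76 and 7.93 TPM in MA9-c-Kit+ and 1.63, 2.92 and 1.15 TPM in MA9-IL-34 libraries. The MA9-c-Kit- libraries were above all others but spread widely, with replicate 3 highest. Il1r2 fell in MA9-c-Kit+ compared with MA9-c-Kit- cells (log2 fold change -3.92 with standard error 0.81, adjusted p = 0.00541). Without MA9-c-Kit- replicate 3, the library with erythroid RNA, the log2 fold change was -3.07 (adjusted p = 0.0103, limma), so the call was kept.

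Il1r1, the signalling receptor, was at 5.62, 4.19 and 5.47 TPM in MA9-c-Kit-, 12.2, 4.62 and 11.8 TPM in MA9-c-Kit+ and 1.89, 2.44 and 1.73 TPM in MA9-IL-34 libraries. The MA9-IL-34 libraries were below all others. It fell against MA9-c-Kit+ cells (log2 fold change -1.71 with standard error 0.32, adjusted p = 0.00743) and against MA9-c-Kit- cells (log2 fold change -1.01 with standard error 0.32, adjusted p = 0.025). The latter call lay at the fold threshold and was lost without MA9-c-Kit- replicate 1 or 3 (log2 fold change -0.95 and -0.96) and without MA9-IL-34 replicate 1 or 3 (-0.98 and -0.94). Without MA9-c-Kit+ replicate 2, the lowest of its group, Il1r1 was called higher in MA9-c-Kit+ than in MA9-c-Kit- cells (log2 fold change 1.10, adjusted p = 0.00291, limma). Il1rap, the accessory chain that IL-1, IL-33 and IL-36 receptors need, was at 6.48 to 8.26 TPM in MA9-c-Kit-, 10.9 to 11.5 TPM in MA9-c-Kit+ and 11.8 to 13.2 TPM in MA9-IL-34 libraries. The groups did not overlap, yet no difference reached 2-fold (log2 fold change 0.72 with standard error 0.14, adjusted p = 0.00227 against MA9-c-Kit- cells).

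Il18rap, the accessory chain of the IL-18 receptor, was at 42.98, 28.8 and 54.8 TPM in MA9-c-Kit-, 49.95, 7.0 and 76.1 TPM in MA9-c-Kit+ and 31.9, 72.4 and 40.02 TPM in MA9-IL-34 libraries. The groups overlapped, and MA9-c-Kit+ replicate 2 was lowest. Il18r1, the chain that binds IL-18, was at 0.20 TPM or less in every library, so the accessory chain was present with almost no RNA of its partner. Il1rl1, the IL-33 receptor ST2, was at 0.12, 0.48 and 1.79 TPM in MA9-c-Kit- libraries and at 0.41 TPM or less in the others. Its highest level was in the library with erythroid RNA. Il1r2, Il1r1, Il1rl1, Il18r1 and Il18rap lie in this order on chromosome 1 of GRCm38, between 40074079 and 40551705, all on the plus strand.

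**Figure D5:**
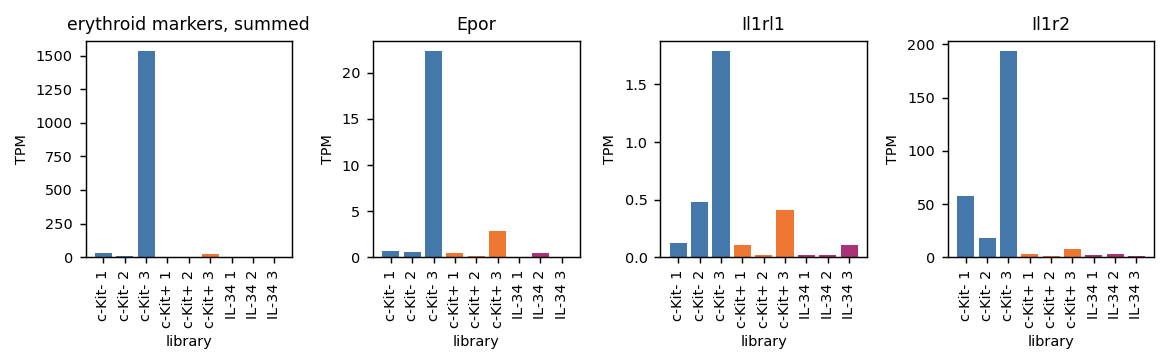
TPM per library (bars, 3 per group, colored by group) of the 5 erythroid markers summed, Epor, Il1rl1 and Il1r2, on linear axes that start at 0. MA9-c-Kit- replicate 3 is the highest bar in all panels, with 1534 TPM for the markers, 22.4 TPM for Epor, 1.79 TPM for Il1rl1 and 194 TPM for Il1r2.

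The IL-10 and interferon receptors are built from a ligand-binding and an accessory chain. Il10ra, which binds IL-10, was at 84.1, 62.3 and 34.7 TPM in MA9-c-Kit-, 4.90, 13.97 and 0.92 TPM in MA9-c-Kit+ and 0.36, 0.25 and 0.10 TPM in MA9-IL-34 libraries. None of the groups overlapped, and MA9-c-Kit+ replicate 2 was the highest of its group. Il10ra was lower in MA9-c-Kit+ than in MA9-c-Kit- cells (log2 fold change -3.38 with standard error 0.63, adjusted p = 0.00343). The difference in MA9-IL-34 compared with MA9-c-Kit+ cells did not pass the test (log2 fold change -2.17 with standard error 0.63, adjusted p = 0.0561). It passed without MA9-c-Kit+ replicate 3 and with pseudocounts of 0.1 and 0.5. It also passed with the replicate number as a block over all 9 libraries (adjusted p = 0.0288, limma). With rescaling without mitochondrial genes it passed as well (adjusted p = 0.0481, limma). Il10rb, the accessory chain, was at 49.0 to 91.6 TPM, overlapped between all groups and was called in no comparison.

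Ifngr1, which binds interferon gamma, was at 273, 309 and 299.8 TPM in MA9-c-Kit- and 285, 222 and 323 TPM in MA9-c-Kit+ libraries, which overlapped. It was at 419.6, 468 and 450.2 TPM in MA9-IL-34 libraries, above all others, but below 2-fold. The log2 fold change was 0.70 with standard error 0.14 against MA9-c-Kit+ cells (adjusted p = 0.00927) and 0.60 with standard error 0.14 against MA9-c-Kit- cells (0.00571, limma). Ifngr2, the signal chain of the same receptor, went the other way against MA9-c-Kit- cells. Against MA9-c-Kit+ cells it overlapped and was not called (log2 fold change -0.28 with standard error 0.20, adjusted p = 0.441, limma). It was at 51.6, 39.5 and 39.7 TPM in MA9-c-Kit-, 16.9, 26.9 and 16.6 TPM in MA9-c-Kit+ and 18.4, 15.4 and 14.3 TPM in MA9-IL-34 libraries. Relative to MA9-c-Kit- cells it fell in MA9-c-Kit+ cells (log2 fold change -1.10 with standard error 0.20, adjusted p = 0.0032), but below 2-fold without MA9-c-Kit- replicate 1 or without MA9-c-Kit+ replicate 1 or 3 (log2 fold change -0.98, -1.0 and -0.99). Against MA9-c-Kit- cells its fall in the MA9-IL-34 group (log2 fold change -1.39 with standard error 0.20, adjusted p = 0.00055) was called under all alternatives run.

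Ifnar1 and Ifnar2 form the receptor for type I interferons. Ifnar1 was at 71.6, 65.2 and 60.01 TPM in MA9-c-Kit-, 37.5, 52.5 and 34.01 TPM in MA9-c-Kit+ and 31.5, 28.4 and 30.7 TPM in MA9-IL-34 libraries. Ifnar2 was at 196, 204 and 166 TPM, 98.8, 169.7 and 93.6 TPM and 96.5, 83.3 and 93.2 TPM in the same order. MA9-c-Kit+ replicate 2 was the highest of its group for both genes. Both were lower in MA9-IL-34 cells than in MA9-c-Kit- cells (log2 fold change -1.09 with standard error 0.16, adjusted p = 0.000538 for Ifnar1, and log2 fold change -1.04 with standard error 0.21, adjusted p = 0.00305 for Ifnar2). Neither was called in MA9-IL-34 compared with MA9-c-Kit+ cells. For Ifnar2 the log2 fold change was -0.98 without MA9-c-Kit- replicate 2 and also -0.98 without MA9-IL-34 replicate 2, below the fold threshold. Ifnar2, Il10rb, Ifnar1 and Ifngr2 lie side by side on the plus strand of chromosome 16 (91372783 to 91565623). Il10rb was thus the gene of this row that was called in no comparison. Gm21970, whose exons overlap those of Ifnar2 and Il10rb, was at 0.49 TPM or less.

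Il17ra, the chain shared by the IL-17 receptors, was at 238, 215 and 195 TPM in MA9-c-Kit-, 41.9, 46.9 and 51.1 TPM in MA9-c-Kit+ and 31.6, 41.4 and 37.8 TPM in MA9-IL-34 libraries. MA9-c-Kit- libraries were far above both other groups, which lay just apart. The difference of MA9-c-Kit+ from MA9-c-Kit- cells passed the test (log2 fold change -2.19 with standard error 0.13, adjusted p = 1.14e-05) and was not called in MA9-IL-34 compared with MA9-c-Kit+ cells (log2 fold change -0.33 with standard error 0.13, adjusted p = 0.15). Crlf3, an orphan receptor-like gene, was at 58.5 to 99.7 TPM. Its groups overlapped in every comparison, and none was called.

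The genes downstream of the receptors were taken from lists of JAK kinases, STAT factors and their regulators. All 4 JAK kinases were tested, at 14.6 to 76.9 TPM, and 0 were called in any comparison (limma). Of all tested genes 7.24% were called in MA9-IL-34 against MA9-c-Kit+, 14.8% in MA9-c-Kit+ against MA9-c-Kit- and 24% in MA9-IL-34 against MA9-c-Kit- cells. At these shares a list of 4 may hold no called gene, so the 0 says little about the JAK kinases. In the same order, 1, 3 and 3 of them had an unadjusted p under 0.05. Without MA9-c-Kit+ replicate 2, 1 of them (Jak2) was called lower in MA9-c-Kit+ than in MA9-c-Kit- cells. Without MA9-c-Kit- replicate 2 or without MA9-IL-34 replicate 1 or 3, Jak2 was called lower in MA9-IL-34 cells than in MA9-c-Kit- cells. With pseudocounts of 0.1 and 0.5 it was called lower there too. Of the 7 STAT factors, 0 were called in MA9-IL-34 compared with MA9-c-Kit+ cells (1 at an unadjusted p under 0.05). Against MA9-c-Kit- cells, 1 was called for MA9-c-Kit+ (14.3%, with 14.8% of all tested genes) and 2 for MA9-IL-34 (28.6%, with 24%). These shares are near those of all tested genes. Stat6, the factor of IL-4 and IL-13, was at 193, 145 and 141 TPM in MA9-c-Kit-, 81.8, 86.1 and 60.5 TPM in MA9-c-Kit+ and 75.9, 71.8 and 76.8 TPM in MA9-IL-34 libraries. It was lower in both c-Kit+ groups than in MA9-c-Kit- cells (log2 fold change -1.06 with standard error 0.16, adjusted p = 0.00128 for MA9-c-Kit+). Stat5b, a factor used by the beta and gamma chain receptors, was lower in MA9-IL-34 cells than in MA9-c-Kit- cells (log2 fold change -1.09 with standard error 0.15, adjusted p = 0.000434). Stat6 lay just below 2-fold without MA9-c-Kit- replicate 1 or MA9-c-Kit+ replicate 3 (log2 fold change -0.92 and -0.91 for MA9-c-Kit+). Stat4 was just below 2-fold in MA9-c-Kit+ against MA9-c-Kit- cells (log2 fold change 0.996 with standard error 0.18, adjusted p = 0.00318). It was called higher there without MA9-c-Kit+ replicate 2 or 3 and without MA9-c-Kit- replicate 1 or 2. The same held with pseudocounts of 0.1 and 0.5, with quantile normalization and with rescaling without mitochondrial genes. Without MA9-c-Kit- replicate 1, neither Stat5b nor Stat6 was called in the MA9-IL-34 group (log2 fold change -0.999 and -0.93).

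Of 16 negative regulators of JAK-STAT signalling, 15 were tested. In MA9-IL-34 compared with MA9-c-Kit+ cells 0 were called (limma), with 7.24% of all tested genes called, and 4 had an unadjusted p under 0.05. Socs3 was called lower there with pseudocounts of 0.1 and 0.5 (log2 fold change -2.75 and -1.40, against -0.92 with 1). In MA9-c-Kit+ compared with MA9-c-Kit- cells 4 fell (26.7% of 15, with 9.15% of all tested genes called lower) and 0 rose (5.66% of all). The 4 were Socs3, Socs6, the phosphatase gene Ptpn1 and the adaptor gene Sh2b3. Socs1 was higher but below 2-fold (log2 fold change 0.83 with standard error 0.21, adjusted p = 0.0142, limma), at 0.42 to 2.41 TPM over these libraries. It was called higher with pseudocounts of 0.1 and 0.5 and without MA9-c-Kit+ replicate 3. Ptpn1 was at 177, 135 and 202 TPM in MA9-c-Kit- and 53.2, 52.3 and 53.4 TPM in MA9-c-Kit+ libraries (log2 fold change -1.65 with standard error 0.15, adjusted p = 8.08e-05). Sh2b3, which encodes the inhibitor LNK, was at 191, 136 and 105 TPM and 52.9, 50.8 and 37.5 TPM in these libraries (log2 fold change -1.56 with standard error 0.21, adjusted p = 0.000766). The same 4 genes were lower in MA9-IL-34 cells than in MA9-c-Kit- cells (26.7% of 15). Of all tested genes 12.7% were called lower there and 24% were called in either direction. Of the 11 adaptors and regulators of IL-1 and IL-18 receptors, 0 were called in MA9-IL-34 compared with MA9-c-Kit+ cells, with 7.24% of all tested genes called. Of these 11, 2 had an unadjusted p under 0.05. Against MA9-c-Kit- cells, 1 was called for MA9-c-Kit+ (9.09%, with 14.8% of all tested genes) and 1 for MA9-IL-34 (9.09%, with 24%). Irak2 fell in MA9-c-Kit+ compared with MA9-c-Kit- cells (log2 fold change -1.28 with standard error 0.24, adjusted p = 0.00325), and Myd88 was lower in MA9-IL-34 cells than in MA9-c-Kit- cells (log2 fold change -1.02 with standard error 0.14, adjusted p = 0.000353). The call of Myd88 was lost when replicate 3 of either group was left out (log2 fold change -0.91 and -0.99).

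Of 9 known STAT5 target genes, 8 were tested. Pim1, a kinase that STAT5 induces, was at 106, 146 and 167 TPM in MA9-c-Kit-, 101, 38.97 and 141 TPM in MA9-c-Kit+ and 6.0, 11.5 and 8.89 TPM in MA9-IL-34 libraries. The MA9-IL-34 libraries were below all others, and it was the 1 gene of this list called in MA9-IL-34 compared with MA9-c-Kit+ cells (log2 fold change -3.13 with standard error 0.43, adjusted p = 0.00148). That is 12.5% of the 8, with 7.24% of all tested genes called. In MA9-c-Kit+ compared with MA9-c-Kit- cells, Myc rose (log2 fold change 2.46 with standard error 0.38, adjusted p = 0.00136) and Socs3, which is on this list too, fell. Cish, often read as a sign of STAT5 activity, was at 1.02 to 3.54 TPM and was called in no comparison. Osm, the gene of oncostatin M and a STAT5 target, was at 78.3, 92.9 and 12.5 TPM in MA9-c-Kit-, 49.4, 30.5 and 7.74 TPM in MA9-c-Kit+ and 10.8, 18.3 and 15.02 TPM in MA9-IL-34 libraries and was not called. Without MA9-c-Kit- replicate 3, the library with erythroid RNA, it was called lower in both c-Kit+ groups than in MA9-c-Kit- cells (log2 fold change -1.84 for MA9-c-Kit+ and -2.49 for MA9-IL-34, adjusted p = 0.0495 and 0.0122, limma).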

How the data were processed

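RNA of the 9 libraries was read from 1 deposited table of 55536 genes with a column per library. No unit is named in the header. Library totals are nearly equal, and the deposited values were taken as TPM that the authors computed. The paper's methods call the assay a microarray, whereas the labels describe RNA libraries made with a TruSeq kit. The aligner, annotation and build are not given in the sources used here. Read depth is therefore unknown. For MA9-c-Kit- replicate 3 the minus sign is missing from the column name, and the column was assigned because no other column fits that library's title. The labels also state that RNA came from enriched c-Kit+ cells, although c-Kit- cells form a group, and the sample titles were followed.

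Values were taken as log2(TPM + 1). The 13722 genes that reached 1 TPM in 3 or more libraries were fitted with limma 3.58.1 under R 4.3.3, with 3 group means over all 9 libraries and a trended prior variance. Benjamini-Hochberg adjustment was applied to each comparison. A call needed a 2-fold difference or more at an adjusted p under 0.05, as in the paper's methods. The procedure was tested on simulated data. The receptor genes and all gene lists were chosen with earlier results of these data known. All receptor genes are named. One marker gene is not reported here and was left out of its list. Of the other lists, at most 4 called genes with the smallest p per list and comparison were named by rule, and further genes were chosen after their values were seen.

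The labels number the replicates. Deviations from the group means correlated between same-numbered libraries of the c-Kit- and c-Kit+ sorts of MA9 mice at 0.202, 0.239 and 0.443. Differently numbered libraries of these sorts correlated at -0.324 to 0.159, so the numbers may mark pairs. Deviations from a group mean sum to 0, which by itself lowers the other correlations. With MA9-IL-34 libraries of the same number the correlations were -0.000871, -0.0727 and -0.0800 for MA9-c-Kit- and -0.150, -0.279 and -0.0946 for MA9-c-Kit+. The fit without the block is reported. Alternatives were no filter, a filter at 5 TPM, pseudocounts of 0.1 and 0.5, fits of the compared groups alone, the replicate block, leaving out each library, quantile normalization, rescaling without mitochondrial genes, and no fold minimum. Positions come from GENCODE M21 on GRCm38, where 55450 identifiers were found and 86 were not. Promoters are from RefSeq on GRCm38.p6, with entries for 32 of the 39 receptor genes. Coding sequences were aligned with Biopython 1.88.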

Additional observations from a re-analysis of the deposited data

How the results depend on the processing

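Directions of the called receptor genes were the same under all alternatives run. Of the 8 genes called in MA9-IL-34 compared with MA9-c-Kit+ cells, Il6st, Il13ra1 and Il2rg were called under every alternative and 5 lost their call under some. Of the 12 called in MA9-c-Kit+ compared with MA9-c-Kit- cells these numbers were 10 and 2, and of the 18 called in MA9-IL-34 compared with MA9-c-Kit- cells they were 14 and 4. Leaving out 1 library gave 5 to 9 genes for MA9-IL-34 against MA9-c-Kit+, 11 to 13 for MA9-c-Kit+ against MA9-c-Kit- and 16 to 18 for MA9-IL-34 against MA9-c-Kit-. Where this left a group with 2 libraries, the spread was pooled over all groups. Without the filter on low values, 5 genes were called in MA9-IL-34 compared with MA9-c-Kit+ cells, with p-values adjusted over 26784 genes. With the replicate number as a block and only these groups, 3 were called, and 9 with the block over all 9 libraries. The MA9-IL-34 numbers did not pair with those of the other groups. The block changed no call in MA9-c-Kit+ compared with MA9-c-Kit- cells, with 12 called, or in MA9-IL-34 compared with MA9-c-Kit- cells, with 18 called. Without the fold minimum, 12, 18 and 23 genes passed. Over all genes tested, that rule gave 1772, 5252 and 6864 genes against 993, 2033 and 3297 with the minimum. Among all genes, 659 were called in MA9-IL-34 compared with MA9-c-Kit+ cells under the block with only these groups. Depth is unknown, so levels near 0 cannot be told from absence. With 3 libraries per group, small differences may have been missed.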

Other observations

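The RNA of the receptors' ligands was mostly low. Of 30 ligand genes, 24 did not reach 1 TPM in 3 libraries, among them Csf2, Il3, Il6, Il4, Il13, Il21 and Ifng. Ebi3, a subunit of IL-27 and IL-35, was at 119, 112 and 66.2 TPM in MA9-c-Kit-, 84.3, 105 and 48.7 TPM in MA9-c-Kit+ and 201, 167 and 198 TPM in MA9-IL-34 libraries. Its level was highest in the MA9-IL-34 libraries, without overlap. Of the 6 tested ligand genes it was the 1 called in MA9-IL-34 compared with MA9-c-Kit+ cells (16.7%, with 7.24% of all tested genes called). The log2 fold change was 1.31 with standard error 0.29 (adjusted p = 0.019, limma). This call did not hold without MA9-c-Kit+ replicate 3 (log2 fold change 0.99) and without MA9-IL-34 replicate 1 or 3 (adjusted p = 0.0725 and 0.0734, limma). Il12a, the p35 subunit of IL-12 and IL-35, was at 9.26, 10.4 and 15.4 TPM in MA9-c-Kit- and 26.7, 43.6 and 25.9 TPM in MA9-c-Kit+ libraries and rose between them (log2 fold change 1.37 with standard error 0.25, adjusted p = 0.00288). Il12b, the partner of Il12a in IL-12, was listed at 0 in every library. Il1b, which encodes IL-1β, was at 21.2, 22.97 and 8.53 TPM in MA9-c-Kit- libraries and at 2.06 TPM or less in the others, and fell in MA9-c-Kit+ compared with MA9-c-Kit- cells (log2 fold change -3.14 with standard error 0.45, adjusted p = 0.000935).

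Of 21 further cytokine receptor genes, 6 were tested. Il22ra2 encodes a secreted protein that binds IL-22 and keeps it from its receptor. It was at 0.66, 1.61 and 1.26 TPM in MA9-c-Kit-, 4.32, 4.35 and 4.57 TPM in MA9-c-Kit+ and 97.9, 56.3 and 83.1 TPM in MA9-IL-34 libraries. The 3 groups did not overlap, and it rose in MA9-IL-34 against MA9-c-Kit+ cells (log2 fold change 3.85 with standard error 0.24, adjusted p = 1.36e-05) and in MA9-c-Kit+ against MA9-c-Kit- cells (log2 fold change 1.34 with standard error 0.24, adjusted p = 0.00251). Il22ra1, the signalling IL-22 receptor chain, was at 0.02 TPM or less in every library. Il31ra, an IL-31 receptor chain, was at 8.48, 14.8 and 7.0 TPM in MA9-c-Kit+ and 2.89, 3.62 and 3.01 TPM in MA9-IL-34 libraries and fell (log2 fold change -1.35 with standard error 0.26, adjusted p = 0.00983). Lepr, the leptin receptor, fell in MA9-c-Kit+ compared with MA9-c-Kit- cells (log2 fold change -1.02 with standard error 0.25, adjusted p = 0.0115). Without MA9-c-Kit- replicate 1 or MA9-c-Kit+ replicate 1 or 3, Lepr was below 2-fold (log2 fold change -0.97, -0.88 and -0.82). Ifnlr1, the interferon lambda receptor, was at 2.53, 1.65 and 1.51 TPM in MA9-c-Kit- libraries and 0.28 TPM or less in the others, and passed the filter on low values only through MA9-c-Kit- libraries. Without MA9-c-Kit- replicate 3, the adaptor gene list gained Il18bp and the ligand list gained Il27 in MA9-c-Kit+ compared with MA9-c-Kit- cells (log2 fold change 1.03 and -1.20). Il27 was at 2.87, 3.09 and 1.14 TPM in MA9-c-Kit- libraries and 0.91 TPM or less in the others. It passed the filter on low values only through MA9-c-Kit- libraries, so the filter favoured a lower call.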
